A study of Homo sapiens with 6 samples.

Results

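The HOX cluster genes were examined across 6 cell populations on one-colour expression arrays. A probe was counted as a member when its only gene symbol was HOXA, HOXB, HOXC or HOXD followed by a number. This gave 45 probes for 38 HOX genes, out of 18365 genes with a probe of a single symbol. HOXA had 10 genes, HOXB 10, HOXC 9 and HOXD 9.

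The populations were 5 stable clones (SFRP1 to SFRP5), each made to express the secreted Frizzled-related protein it is named for, an extracellular protein that can bind Wnt ligands, and a mock population labelled HM20 Mock. All 6 are listed as A549, a line established from a human lung adenocarcinoma, and the labels do not explain what HM20 means. All 6 had been in medium with Wnt3a for 24 hours, mock included, so no response to Wnt3a was measured. Each population was 1 clone or culture with 1 array, so a difference between 2 arrays has no replicate check and cannot be told apart from differences between any 2 clones of the line. In such bulk RNA, fewer cells that express a gene and less RNA per cell cannot be told apart either.

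HOX genes encode homeodomain transcription factors that give cells their position along the head-to-tail axis of the embryo. They lie in 4 clusters, and genes of the same place in different clusters, called paralogues, share a number from 1 to 13. Low numbers act towards the head and high numbers towards the tail and the limb tips, and the pattern is often kept in adult cells and in cell lines derived from them. In the lung, genes from the anterior and middle part of the HOXA and HOXB clusters are active during development, with Hoxa5 and Hoxb5 known in the mouse for roles in airway branching.

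HOX proteins bind short sites around a TAAT core and bind longer sites such as TGATTNAT together with PBX proteins. The 250 bases before an annotated start are shown for 4 regions, taken from RefSeq (GRCh38.p14), each 5′ to 3′. HOXA13 is shown because it had the widest spread over the arrays, HOXD1 because it was 2-fold above mock in SFRP3, HOXD11 because it stayed within 2-fold on all arrays, and the HOXC4 window because it is also the annotated HOXC5 window. Capitals mark TAAT on either strand (TAAT or ATTA) and TGATTNAT on either strand.
HOXA13, chr7:27200092-27200341, minus strand: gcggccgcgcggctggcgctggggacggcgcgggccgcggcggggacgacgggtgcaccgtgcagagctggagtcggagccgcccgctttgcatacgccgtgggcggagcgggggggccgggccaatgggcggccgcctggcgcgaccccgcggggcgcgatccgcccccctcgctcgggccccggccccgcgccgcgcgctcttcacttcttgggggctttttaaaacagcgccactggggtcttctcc
HOXD1, chr2:176188418-176188667, plus strand: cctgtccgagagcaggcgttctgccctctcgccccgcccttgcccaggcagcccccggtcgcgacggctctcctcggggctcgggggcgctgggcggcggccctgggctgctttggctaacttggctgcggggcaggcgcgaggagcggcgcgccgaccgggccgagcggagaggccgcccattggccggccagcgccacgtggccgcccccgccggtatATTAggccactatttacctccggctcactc
HOXD11, chr2:176107030-176107279, plus strand: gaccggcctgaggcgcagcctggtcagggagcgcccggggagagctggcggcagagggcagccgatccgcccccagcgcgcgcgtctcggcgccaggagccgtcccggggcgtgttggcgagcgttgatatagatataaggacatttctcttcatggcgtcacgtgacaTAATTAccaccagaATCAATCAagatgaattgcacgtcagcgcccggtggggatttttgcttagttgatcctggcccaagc
HOXC4 and HOXC5, chr12:54016638-54016887, plus strand: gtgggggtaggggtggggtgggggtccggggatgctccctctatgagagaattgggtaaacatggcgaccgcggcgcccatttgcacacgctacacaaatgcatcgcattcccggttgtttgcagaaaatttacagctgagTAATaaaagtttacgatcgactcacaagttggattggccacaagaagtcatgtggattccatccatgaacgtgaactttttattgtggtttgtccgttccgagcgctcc
RefSeq gave such a window for 20 of the 38 genes, 27 windows in all since some genes have several starts. TAAT was present in 20 of the 27 HOX windows (74.1%) and in 47.4% of all 35116 windows. TGATTNAT was present in 2 of the 27 (7.41%), those of HOXA2 and HOXD11, and in 2.48% of all windows. In HOXD11, TAAT and ATTA overlap in one run of capitals, and the longer site stands as its reverse complement. A match of letters is a description and not a measured binding site, and windows of 1 gene and of neighbours can overlap.

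Array medians lay between 622.5 and 689.0 in the clones and at 599.6 in mock, and 22 values below 0 on the SFRP4 array were set to 0 for the whole table. Levels are log2(intensity + 1), and every difference is on that scale. A gene was kept when its brightest array reached the table's median, an intensity of 641.8, and the brightest probe stood for a gene with several. The probe of a clone's own SFRP gene was above mock by 0.58 in SFRP1, and differed from mock by -0.65 to -0.12 in the other clones. The SFRP2, SFRP4 and SFRP5 probes read 58.1, 53.3 and 44.5 in their own clones, below the 10th percentile of those arrays. Clones are therefore named by their labels. Of the lung epithelial markers, FOXA2 was bright (17783 to 39491 in the clones and 41952 in mock). The surfactant gene SFTPC, chosen after its values were seen, read 77.9 to 108.7 in the clones and 104.3 in mock. All 18 such markers on the arrays summed to 24861 to 54665 in the clones and 62848 in mock.

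Of the 38 HOX genes, 25 were kept: 6 of HOXA, 8 of HOXB, 8 of HOXC and 3 of HOXD. Over all genes, 11954 were kept. Of the 25, 4 reached the filter on 1 array alone: HOXA5 and HOXA13 on SFRP1, HOXA4 on SFRP4 and HOXB9 on SFRP2. Such a gene was kept because it was high there, so its height on that array is set by the filter in part. The kept HOX genes were dim by the measure of the array, with a median level of 10.10 (intensity 1094) against 11.64 (3197) over all kept genes, and 23 of the 25 lay at or below the median level of kept genes. Probes differ in how brightly they read a given amount of RNA, so a brighter probe does not show a more abundant transcript, and levels below are compared only between arrays. Probe positions were not known here, and transcripts whose annotated genes overlap, such as HOXC4, HOXC5 and HOXC6, or HOXA9 and HOXA10, could not be told apart.

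**Figure D1:**
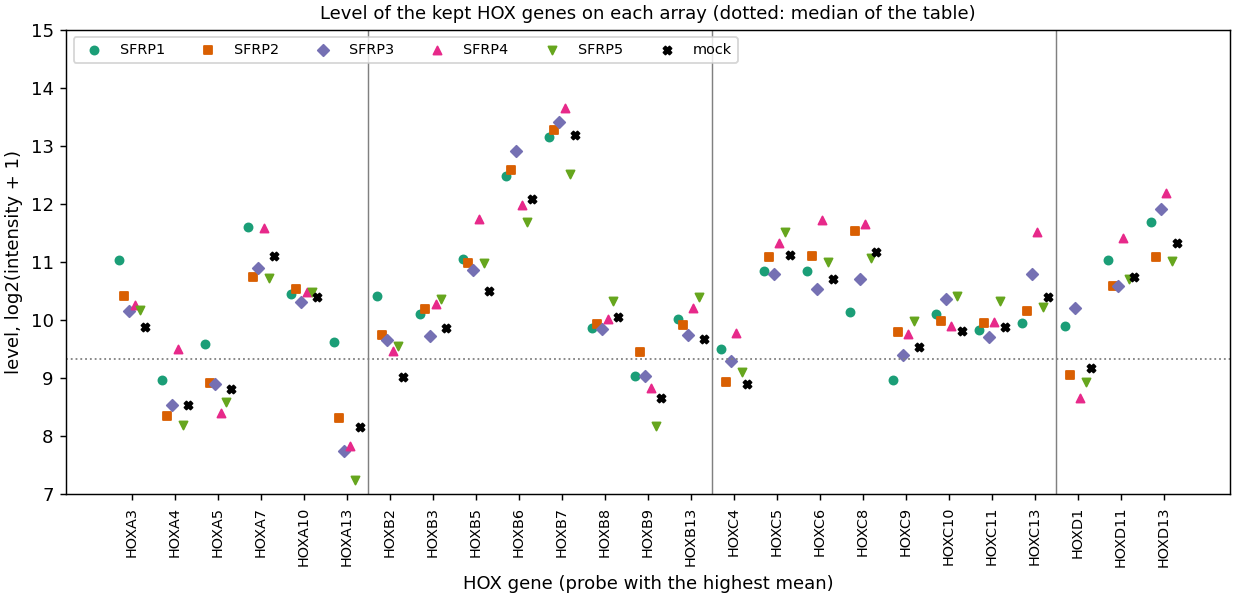
Level of each of the 25 kept HOX genes, log2(intensity + 1) on the vertical axis, by cluster and paralogue number, with 1 point per array (5 SFRP clones, then mock). The dotted line is the table's median of 9.33, and the spread of 1 gene over the arrays runs from 0.22 for HOXA10 to 2.38 for HOXA13.

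The brightest member of each cluster read above the table's median on every array. HOXB7, a middle-cluster gene studied as a growth-promoting factor in several cancers, read 9097 in SFRP1, 9888 in SFRP2, 10980.3 in SFRP3, 13004 in SFRP4 and 5873 in SFRP5, against 9351 in mock. The SFRP4 clone was highest and SFRP5 lowest, and mock lay among the clones. HOXA7, another middle-cluster gene, read 3113 in SFRP1, 1724 in SFRP2, 1909 in SFRP3, 3095 in SFRP4 and 1685 in SFRP5, against 2202 in mock. SFRP1 and SFRP4 stood above the other 4 arrays, and the dimmer HOXA7 probe gave the same order of these groups, with differences from mock of 0.74 in SFRP1 and 0.82 in SFRP4 and of -0.18 to 0.01 in the other 3 clones. HOXD13, a gene of the limb tips and the most posterior of its cluster, read 3295 in SFRP1, 2169.5 in SFRP2, 3847 in SFRP3, 4668 in SFRP4 and 2086 in SFRP5, against 2587 in mock. HOXC5, of the neck and thorax region, read 1835 in SFRP1, 2176 in SFRP2, 1776 in SFRP3, 2570.3 in SFRP4 and 2935 in SFRP5, against 2225 in mock. SFRP5 was highest and SFRP3 lowest, and the dimmer HOXC5 probe agreed in sign with it in all 5 clones. That probe differed from mock by -1.07 in SFRP1, where the brighter one differed by -0.28.

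The same members were read on all 6 arrays. Of the 25 kept genes, 10 stayed within 2-fold between their highest and lowest array (40%), where 52.1% of all kept genes did, and among genes at or below the median level the share was 10 of 23 HOX genes (43.5%) and 48.6% of all. The gap depended on which clone was left out. Without SFRP4 the share was 68% of HOX genes and 65.3% of all kept genes, and without SFRP1 it was 60% and 59.6%. It stayed lower for HOX genes without SFRP2 (44% and 55.5%), SFRP3 (44% and 56.7%) or SFRP5 (56% and 61.6%). The count rests on the brighter probe of each gene. Among the genes counted, the dimmer probes of HOXC5, HOXB13 and HOXA7 spanned 3.35-fold, 2.19-fold and 2.01-fold over the arrays. The dimmer probe of HOXB3 spanned 1.68-fold. HOXA10, known for its part in uterus and blood development, was the steadiest: it read 1406 in SFRP1, 1486 in SFRP2, 1275 in SFRP3, 1432 in SFRP4 and 1431 in SFRP5, against 1348 in mock. Its highest and lowest arrays differed by 1.17-fold, and its clones differed from mock by 0.06 ± 0.08 (SD, n = 5 clones). The sign of that mean turned to -0.06 when arrays were centred on their medians.

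HOXB8, an axial patterning gene also tied to blood progenitors, read 931.0 in SFRP1, 975.8 in SFRP2, 919.6 in SFRP3, 1041 in SFRP4 and 1284 in SFRP5, against 1057 in mock. HOXB13, known as a prostate transcription factor, read 1043 in SFRP1, 967.9 in SFRP2, 855.4 in SFRP3, 1190.2 in SFRP4 and 1348 in SFRP5, against 819.5 in mock, with mock the lowest. HOXB3, of the hindbrain and neck region, read 1102 in SFRP1, 1167 in SFRP2, 849.0 in SFRP3, 1239 in SFRP4 and 1316 in SFRP5, against 929.4 in mock. These 3 HOXB genes had ranges of 0.48 to 0.72 over the arrays.

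HOXC10, a posterior limb and spinal cord gene, read 1105 in SFRP1, 1013 in SFRP2, 1312 in SFRP3, 952.4 in SFRP4 and 1359.6 in SFRP5, against 901.2 in mock, with mock again the lowest. HOXD11, a gene of the forearm in mouse development, read 2112 in SFRP1, 1532 in SFRP2, 1543 in SFRP3, 2742 in SFRP4 and 1664 in SFRP5, against 1712 in mock. SFRP4 was its highest array and SFRP2 its lowest. The other members within 2-fold were HOXC4 (range 0.88) and HOXC11 (0.61). At the other end, only HOXA13 among the kept HOX genes had a range of over 4-fold, where 9.25% of all kept genes did.

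**Figure D2:**
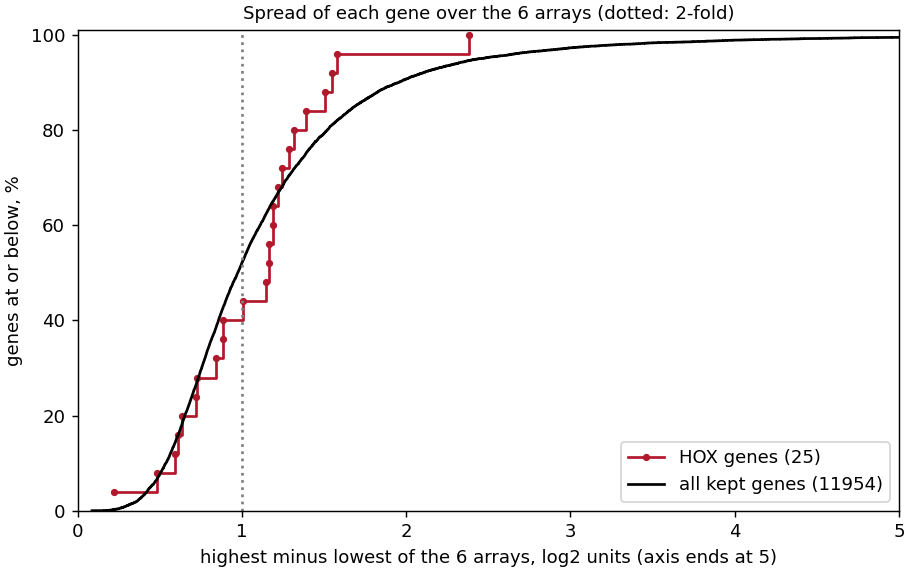
Share of genes (vertical axis, %) whose highest minus lowest array lies at or below the value on the horizontal axis (log2 units), for the 25 kept HOX genes and all 11954 kept genes. The HOX curve lies below that of all genes at 2-fold (40% against 52.1%) and above it at 4-fold, where 1 HOX gene remains.

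Each clone was then set against mock, the comparison of the series' design, to ask whether the positional pattern was shared. Over the 125 pairs of a kept HOX gene and a clone, 8 were at least 2-fold from mock (6.40%), 7 higher and 1 lower, against 9.66% over all kept genes. By clone the count was 4 of 25 in SFRP1, where 8.74% of all kept genes were that far away. It was 0 in SFRP2 (background 6.69%, of which 2.8% higher and 3.89% lower), 1 in SFRP3 (6.88%), 3 in SFRP4 (13.5%) and 0 in SFRP5 (12.5%, of which 5.98% higher and 6.53% lower). In all, 8 of the 25 genes were 2-fold away in 1 or more clones, against 29% of all kept genes. The share in 1 or more clones, 32%, was thus slightly above its background. By clone the HOX share lay below the background in SFRP2, SFRP3, SFRP4 and SFRP5. The highest share was in SFRP1, where 4 of 25 is 16%, above the background of 8.74%. That count includes HOXA13, kept through its SFRP1 reading alone. Without HOXA5 and HOXA13 it was 3 of 23, and it was also 3 with the probes of a gene averaged, where HOXA3 was lost.

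**Figure D3:**
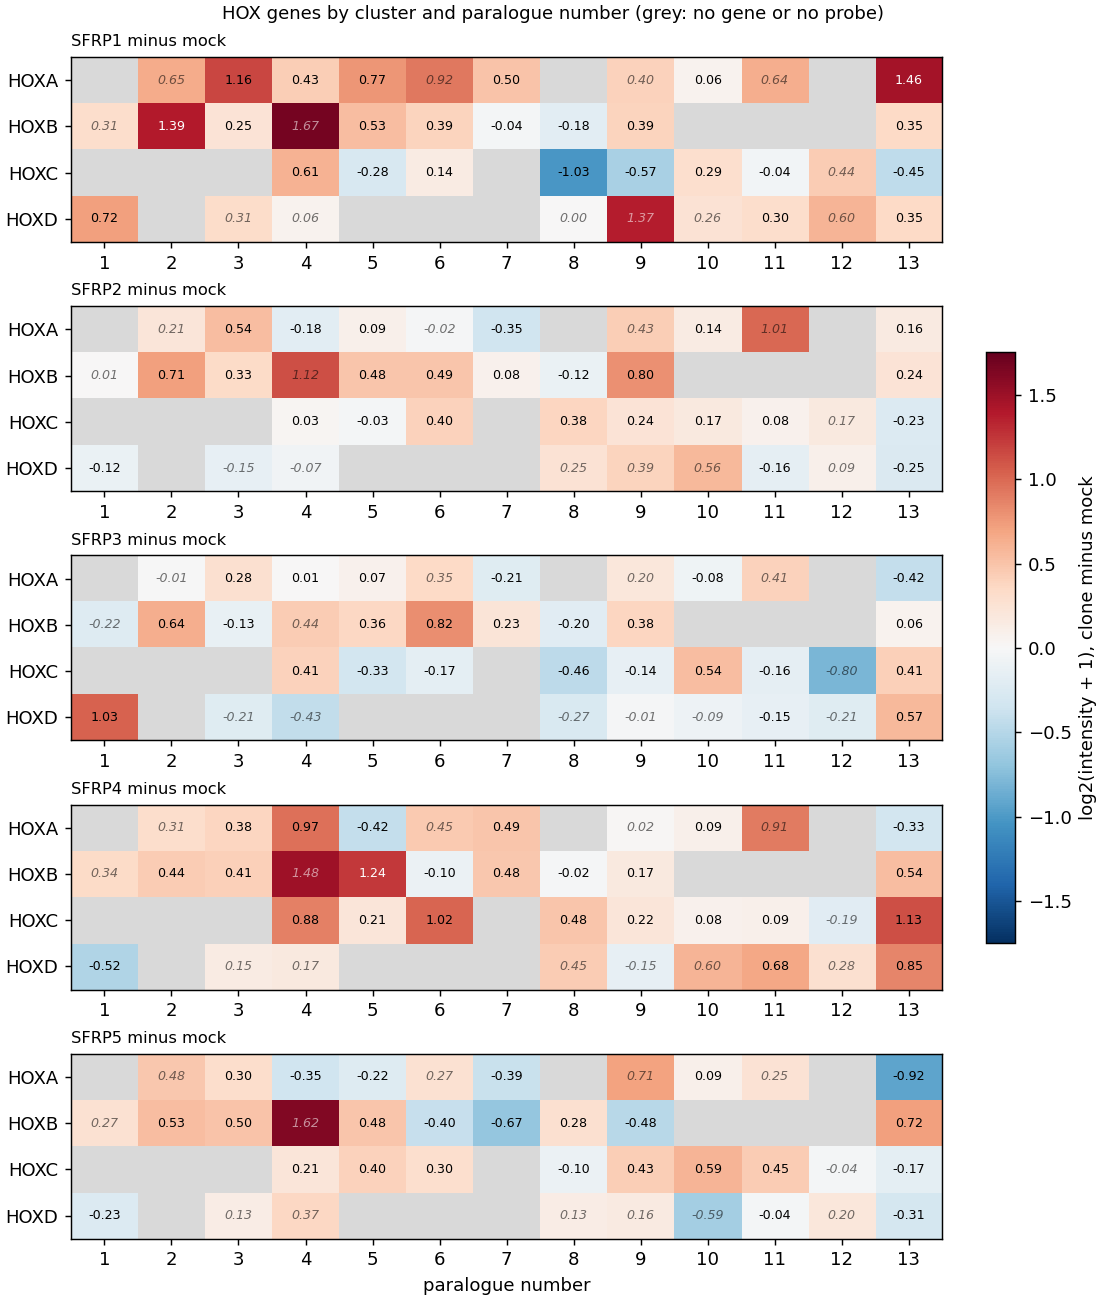
Difference of each clone from mock (colour and printed value, log2 units) for the 38 HOX genes on the arrays, with clusters as rows and paralogue numbers as columns. Values in faint italics are genes that did not pass the filter on dim probes, and grey cells hold no gene or no probe; the kept genes past 1 log2 unit are in SFRP1, SFRP3 and SFRP4.

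In the SFRP1 clone 3 HOX genes were at least 2-fold higher (background 4.41%) and 1 was lower (4.33%). HOXA13, the most posterior HOXA gene, active in the limb tips and urogenital tract, read 785.1 in SFRP1, 317.3 in SFRP2, 212.7 in SFRP3, 226.8 in SFRP4 and 149.7 in SFRP5, against 284.8 in mock. The SFRP1 array alone was above the table's median for this probe, with a difference from mock of 1.46, and SFRP5 was lowest at -0.92. HOXB2, a hindbrain patterning gene, read 1366 in SFRP1, 852.5 in SFRP2, 808.7 in SFRP3, 707.8 in SFRP4 and 753.0 in SFRP5, against 519.7 in mock. All 5 clones were above mock and SFRP1 was the highest, at 1.39. HOXA3, which in the mouse is needed for thymus and parathyroid, read 2104 in SFRP1, 1365 in SFRP2, 1141 in SFRP3, 1220.2 in SFRP4 and 1158 in SFRP5, against 938.8 in mock. SFRP1 was again the highest, at 1.16, but the dimmer HOXA3 probe differed there by only 0.32.

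HOXC8, a thoracic gene, read 1129.7 in SFRP1, 2984 in SFRP2, 1669 in SFRP3, 3214 in SFRP4 and 2153 in SFRP5, against 2301 in mock. By the brighter probes and without further scaling, it was the single kept HOX gene with a clone at least 2-fold below mock, in SFRP1 at -1.03. The dimmer HOXC5 probe was that low in SFRP1 too (-1.07). HOXA13 in SFRP5 was at -1.12 under median centring and -1.22 under quantile normalization. HOXC9, the neighbour of HOXC8, had its lowest array in SFRP1 too, at 501.2 against 746.2 in mock.

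The SFRP4 clone had 3 HOX genes at least 2-fold higher (background 5.97%) and 0 lower (7.51%). HOXB5, a gene of lung branching in the mouse, read 2114 in SFRP1, 2037 in SFRP2, 1873 in SFRP3, 3449 in SFRP4 and 2034 in SFRP5, against 1459 in mock. Each clone was above mock, and the SFRP4 array stood apart at 1.24 where the other clones lay between 0.36 and 0.53. HOXC13, a hair and nail gene, read 982.9 in SFRP1, 1141 in SFRP2, 1785 in SFRP3, 2934 in SFRP4 and 1196 in SFRP5, against 1342 in mock. SFRP4 was highest at 1.13, and mock lay among the other clones. HOXC6, a thoracic gene, read 1844 in SFRP1, 2205 in SFRP2, 1481 in SFRP3, 3383 in SFRP4 and 2054 in SFRP5, against 1668 in mock. The SFRP4 difference was 1.02, just past 2-fold, and it was 0.90 under median centring.

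In the SFRP3 clone HOXD1, an anterior gene with a role in pain-sensing neurons in the mouse, was the single member at least 2-fold higher (background 3.73%), and 0 were lower (3.15%). It read 950.6 in SFRP1, 532.0 in SFRP2, 1178 in SFRP3, 401.7 in SFRP4 and 490.4 in SFRP5, against 577.0 in mock. SFRP1 was also above mock, and SFRP4 was lowest. The SFRP3 difference of 1.03 was 0.97 under median centring and 0.94 under quantile normalization, below 2-fold in both. Members with differences closest to the limit on its near side were HOXA4 in SFRP4 (0.97) and HOXA13 in SFRP5 (-0.92).

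Between 2 clones, 1 to 5 of the 25 genes were at least 2-fold apart. SFRP1 and SFRP4 differed in 5 (20%, background 13.7%): HOXA5, HOXA13, HOXC8, HOXC13 and HOXD1. HOXA5 and HOXA13 were kept through SFRP1 alone, and without them the count was 3 of 23. SFRP4 and SFRP5 differed in 4 (16%, background 20.5%), namely HOXA4, HOXB7, HOXC13 and HOXD13. SFRP1 differed from SFRP2 in 2 genes (background 8.58%), from SFRP3 in 1 (12.5%) and from SFRP5 in 2 (16.2%). SFRP2 differed from SFRP3 in 1 gene (6.61%), from SFRP4 in 3 (18.7%) and from SFRP5 in 2 (8.02%). SFRP3 differed from SFRP4 in 2 genes (16.8%) and from SFRP5 in 2 (9.01%). The counts of the other SFRP1 pairs include HOXA13, kept through SFRP1 alone. Those of SFRP4 with SFRP2 and SFRP5 include HOXA4, kept through SFRP4 alone. That of SFRP2 with SFRP5 includes HOXB9, kept through SFRP2 alone.

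The array on which a gene was highest or lowest was then listed. SFRP4 was the highest of the 6 arrays for 9 of the 25 genes (background 23.7%) and the lowest for 2 (23.1%). SFRP5 was the highest for 7 (24.6%), all in HOXB or HOXC, and the lowest for 7 (18.5%), of HOXA, HOXB and HOXD. SFRP1 was the highest for 5 (16.8%), namely HOXA3, HOXA5, HOXA7, HOXA13 and HOXB2, and the lowest for 3 (16%), namely HOXC8, HOXC9 and HOXC13. SFRP2 was the highest for 2 (12%) and the lowest for 1 (11%), and SFRP3 the highest for 2 (14.4%) and the lowest for 6 (16.9%). Being highest was fixed by the filter for HOXA5 and HOXA13 in SFRP1, HOXA4 in SFRP4 and HOXB9 in SFRP2. Each of these genes reached the filter on that array alone, and the counts above include them.

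The 13 genes not kept read between 23.8 and 640.2. They were HOXA2, HOXA6, HOXA9, HOXA11, HOXB1, HOXB4, HOXC12, HOXD3, HOXD4, HOXD8, HOXD9, HOXD10 and HOXD12. HOXC12 and HOXD12 lay below the 10th percentile on all 6 arrays, so their readings have no order. Among the 13, HOXB4, HOXA11 and HOXD9 had a clone at least 2-fold from mock (23.1%), where 21% of all 6411 genes not kept did, and these are described here after their values were seen. HOXB4, an anterior gene also known in blood stem cells, read 328.0 in SFRP1, 224.3 in SFRP2, 139.4 in SFRP3, 288.3 in SFRP4 and 316.8 in SFRP5, against 102.4 in mock. Every clone was above mock, by 1.27 ± 0.51 (SD, n = 5 clones), and 4 of the 5 by more than 2-fold. With no filter its unadjusted limma p was 0.0270 and its adjusted p 1.00, and 1 of the 38 HOX genes had an unadjusted p below 0.05, where 2.38% of all genes did. HOXA11 was above mock by 1.01 in SFRP2. HOXD9 read 640.2 in SFRP1 and 222.7 to 323.7 in the other clones, against 247.2 in mock, and missed the filter narrowly.

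The clones as a set were compared with mock in limma, fitted over all 11954 kept genes. The fit takes its spread from clones of 5 different SFRP genes and assumes that the single mock array varies like them, so its p-values cover no replicate error. It called 0 of the 25 HOX genes at an adjusted p below 0.05, and 0 had an unadjusted p below 0.05. Over all genes it called 5 (0.0418%), and 2.18% had an unadjusted p below 0.05. The lowest unadjusted limma p among the kept HOX genes was 0.112, for HOXB2, whose clones differed from mock by 0.74 ± 0.38 (SD, n = 5 clones) with 5 of 5 above it. HOXB5 came next, at 0.62 ± 0.35 (SD, n = 5 clones), with 5 of 5 above mock and an unadjusted limma p of 0.165. HOXA3, by its brighter probe, differed by 0.53 ± 0.37 (SD, n = 5 clones) in the same direction in 5 of 5 clones. A p above the threshold in this design does not show that these genes were alike.

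Mock was the lowest array for 6 of the 25 genes (HOXA3, HOXB2, HOXB5, HOXB13, HOXC4 and HOXC10), where 14.5% of all kept genes had it lowest, and the highest for 0, where 8.51% had it highest. The mock array also had the lowest median intensity. After median centring 4 genes had mock lowest (HOXA3, HOXB2, HOXB5 and HOXB13; background 8.36%) and 0 had it highest (background 14.2%). HOXC4 and HOXC10 thus depended on the scaling. For HOXA3 and HOXB13, mock was lowest by the brighter probe only. The dimmer HOXA3 probe was below mock in SFRP3 (-0.17). The dimmer HOXB13 probe was below mock in SFRP2 (-0.16) and SFRP3 (-0.02).

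The clusters were then described one by one in each clone. Over all 25 HOX genes, the number above mock was 18 in SFRP1 (54.1% of all kept genes), 17 in SFRP2 (57.6%), 14 in SFRP3 (53.5%), 20 in SFRP4 (54.2%) and 13 in SFRP5 (55.9%). After median centring it was 17 in SFRP1 (43.5%), 13 in SFRP2 (46.8%), 13 in SFRP3 (47.4%), 17 in SFRP4 (45.9%) and 12 in SFRP5 (43.1%). In SFRP1 the 6 kept HOXA genes were all above mock, with a median difference of 0.63. HOXA5 and HOXA13 were kept through that array alone, and the other 4 had a median of 0.47. The 3 HOXD genes were above mock too, at 0.35. The HOXB median was 0.37, with 6 of 8 above mock. HOXC differed from them with a median of -0.16 and 3 of 8 above mock, while the median of all kept genes was 0.05. HOXC4 was its highest member, at 0.61, and the lower ones were HOXC8 (-1.03), HOXC9 (-0.57), HOXC13 (-0.45), HOXC5 (-0.28) and HOXC11 (-0.04).

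In SFRP4 the HOXC cluster had the opposite sign, with 8 of 8 genes above mock and a median of 0.35. HOXB was at 0.43 (6 of 8), HOXD at 0.68 (2 of 3) and HOXA at 0.23 (4 of 6), with all kept genes at 0.06. The HOXA median includes HOXA4 (0.97), which was kept through the SFRP4 array alone. SFRP5 had the lowest HOXA median, -0.29, with 2 of 6 genes above mock, and its HOXD genes were all below mock at -0.23. Its HOXB and HOXC medians were 0.38 and 0.35, and that of all kept genes was 0.10.

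SFRP2 and SFRP3 lay closer to mock. In SFRP2 the HOXB median was 0.41 with 7 of 8 above mock, HOXA was at 0.12, HOXC at 0.12 and HOXD at -0.16, with 0.08 for all kept genes. That HOXB median includes HOXB9 (0.80), which was kept through the SFRP2 array alone. In SFRP3 HOXB was at 0.30, HOXD at 0.57, HOXA at -0.03 and HOXC at -0.15, with 0.03 for all. The HOXB median was therefore above that of all kept genes in each of the 5 clones. These comparisons share 1 mock array, so its 1 reading of each HOXB gene enters all 5. Under median centring the HOXB median was still above 0 in each clone, at 0.18 to 0.31. The HOXC median in SFRP1 was -0.28 and that of HOXC in SFRP4 was 0.23 (6 of 8 above mock) under the same centring, and 5 of 6 HOXA genes in SFRP1 were above mock.

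**Figure D4:**
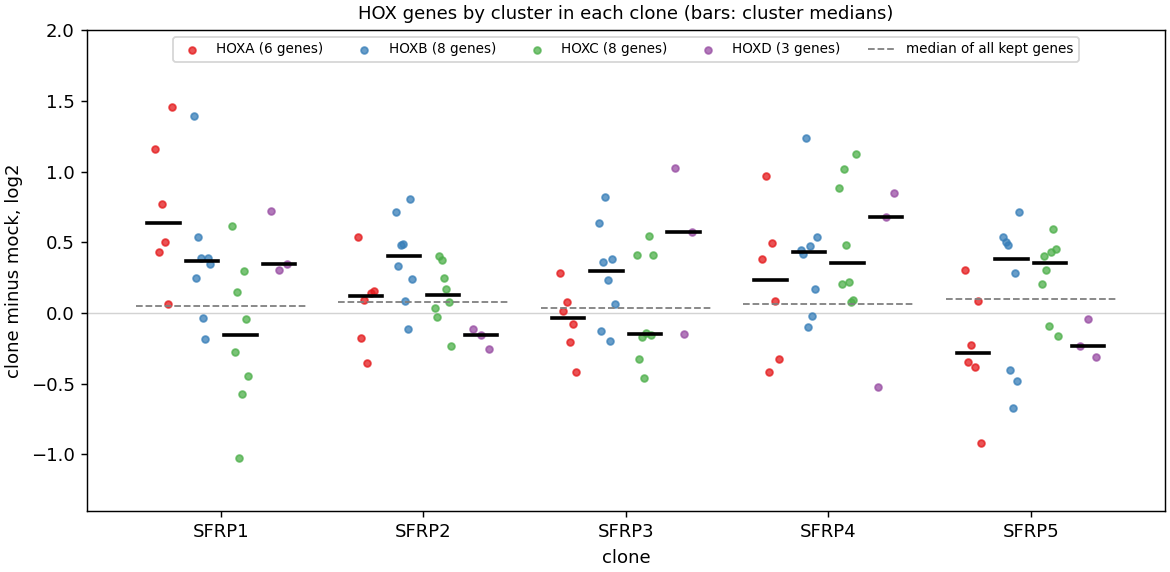
Difference from mock (vertical axis, log2 units) of each kept HOX gene in each clone, coloured by cluster, with a black bar at the cluster's median and a dashed line at the median of all kept genes. HOXA lies highest in SFRP1 (median 0.63) and lowest in SFRP5 (-0.29), and HOXC lies lowest in SFRP1 (-0.16).

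The 9 kept genes of paralogues 1 to 5 had median differences of 0.61 in SFRP1, 0.09 in SFRP2, 0.28 in SFRP3, 0.41 in SFRP4 and 0.30 in SFRP5. For the 8 genes of paralogues 6 to 9 these medians were 0.05, 0.31, -0.16, 0.35 and -0.24 in the same order of clones. For the 8 genes of paralogues 10 to 13 they were 0.30, 0.11, -0.01, 0.32 and 0.02. Paralogues 1 to 5 thus had the highest median of the 3 groups in SFRP1, SFRP3, SFRP4 and SFRP5, and the lowest in SFRP2. The same held under quantile normalization. Median centring shifts all genes of an array alike, so it could not change the order. Margins were narrow in SFRP2 (0.09 against 0.11) and SFRP4 (0.41 against 0.35). The middle genes were the lowest in SFRP1, SFRP3 and SFRP5 and the highest in SFRP2. The comparisons share the mock array, so this is a description of these arrays. HOXA5 and HOXA13 were kept through SFRP1 alone, HOXA4 through SFRP4 and HOXB9 through SFRP2. Their heights there, and the medians that include them, are set by the filter in part. Within 1 paralogue number the clusters could part: in SFRP1 HOXA13 differed by 1.46, HOXB13 by 0.35, HOXD13 by 0.35 and HOXC13 by -0.45.

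The likeness of whole profiles was described over the 15 pairs of arrays. Pearson's r over the 38 HOX genes lay between 0.924 and 0.982 (median 0.964), and over the 25 kept ones between 0.775 and 0.966. The points of each correlation share the probes' own brightness, which holds r high, and genes are not independent. The root mean square difference over kept HOX genes was 0.34 to 0.80 log2 units, against 0.61 to 0.98 over all kept genes, and it was smaller for HOX in 15 of 15 pairs. That measure weighs large differences most. The median absolute difference, 0.19 to 0.66 for HOX and 0.26 to 0.48 for all kept genes, had middle values of 0.40 and 0.41 over the pairs. By root mean square the closest pair by HOX genes was SFRP2 and mock (0.34). By median absolute difference it was SFRP2 and SFRP5 (0.19), with SFRP2 and mock at 0.23. The farthest by root mean square were SFRP1 and SFRP5 (0.80) and SFRP1 and SFRP4 (0.80).

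**Figure D5:**
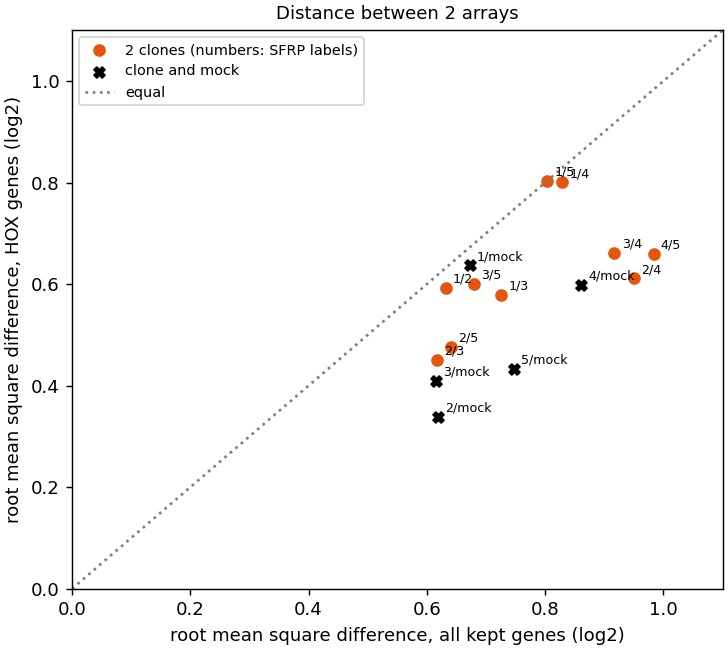
Root mean square difference between 2 arrays over the 25 kept HOX genes (vertical axis) and over all 11954 kept genes (horizontal axis), both in log2 units, with 1 point for each of the 15 pairs. All points lie at or under the dotted line of equality, from SFRP2 and mock (0.34) up to SFRP1 and SFRP5 (0.80).

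The genes that flank the clusters were read beside them. In RefSeq gene order the nearest protein-coding neighbours are SKAP2 and EVX1 for HOXA, SKAP1 and TTLL6 for HOXB, CALCOCO1 and SMUG1 for HOXC, and EVX2 and MTX2 for HOXD, and PRAC lies between HOXB9 and HOXB13. Of 27 kept genes on the list of flanking genes limma called 0, and 4 of 135 gene and clone pairs were at least 2-fold from mock (2.96%, against 9.66% over all kept genes), all lower. The brightest was ATP5G3, a subunit gene of the mitochondrial ATP synthase, with differences of -0.42 to -0.02. PRAC and EVX2 were chosen for description after their values were seen. PRAC, a gene of prostate and hindgut, read 522.6 to 837.6 in the clones and 1321 in mock, lower in 5 of 5 clones, with an unadjusted limma p of 0.0440 and an adjusted p of 1.00. EVX2, a homeobox gene next to HOXD13, read 6559, 5662, 4646, 8666 and 3113 in SFRP1 to SFRP5 and 8908 in mock. HOXB13 and HOXB9, on either side of PRAC, and HOXD13 did not share this direction. HOXB13 was above mock in 5 of 5 clones by its brighter probe, HOXB9 in 4 and HOXD13 in 3.

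HOX proteins act with cofactors of the TALE class (PBX, MEIS and PKNOX), and their clusters are silenced by Polycomb and kept active by Trithorax proteins. Among 5 kept cofactor genes limma called 0. MEIS2, the brightest, read 2171 to 3384 in the clones and 2708 in mock. The cofactors PBX4 and PBX3, the Polycomb gene CBX7 and the receptor genes RARG and RARB were chosen for description after their values were seen. SFRP4 was the one clone with cofactors at least 2-fold from mock, 2 of 25 pairs in all (8%, against 9.66% over all kept genes), PBX4 higher (1.54) and PBX3 lower (-1.06). Of 26 kept Polycomb genes limma called 0, and 7 of 130 gene and clone pairs were 2-fold away (5.38%, below the 9.66% of all kept genes). RBBP7, a histone-binding subunit and the brightest of them, differed by -0.33 to 0.35. CBX7, a Polycomb reader of methylated histone, was lower in 5 of 5 clones and by more than 2-fold in SFRP2 (-1.55) and SFRP5 (-1.36).

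Of 17 kept Trithorax genes limma called 0, and 1 of 85 pairs was 2-fold away (1.18%, below the same 9.66%). DPY30, a core subunit of the MLL complexes and the brightest, differed by -0.51 to 0.16. Retinoic acid is a classical inducer of anterior HOX genes, and in that list 10 of 75 pairs over 15 kept genes were 2-fold away (13.3%, against 9.66% over all kept genes), with 0 limma calls. Of the 10, 5 were in SFRP4. There 5 of the 15 kept genes on the list were that far away, a larger share than the 13.5% of all kept genes. DHRS3, a retinaldehyde reductase and the brightest, differed by -1.35 in SFRP3 and -1.65 in SFRP4 and by -0.26 to 0.10 in the other clones. RARG, a retinoic acid receptor gene, was above mock by 1.11 in SFRP1 and 1.03 in SFRP5, and RARB by 1.43 in SFRP3 and 1.22 in SFRP4. The part of these genes in the HOX readings was not tested.

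Of the genes listed as non-coding RNAs of the clusters, 3 had a probe, and 0 were kept. HOTAIR, from the HOXC cluster, read 84.4 to 180.4 in the clones and 85.5 in mock. HOXA11-AS read 95.5 to 276.1 in the clones and 167.3 in mock, and HOXB-AS5 read 255.8 to 469.8 and 256.6. HOXB-AS5 is an older symbol of PRAC2, which RefSeq gives as a protein-coding gene inside the HOXB cluster. A further probe that carries the symbols of HOXA9 and of the HOXA10-HOXA9 read-through lay at 51.3 to 105.2 in the clones and 79.9 in mock, below the 10th percentile on 2 arrays.

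A second probe was present for 7 HOX genes. It had the sign of the brighter probe in all 5 clones for HOXC5, in 4 for HOXA3 and HOXA7, in 3 for HOXA6, HOXB3 and HOXB13 and in 2 for HOXA5. For HOXA5, a tumour suppressor candidate in several epithelia, the brighter probe differed from mock by 0.77 in SFRP1 and -0.42 in SFRP4, and the dimmer one by 1.04 and 0.49. Both probes had SFRP1 as the highest array, and they parted in sign in SFRP2, SFRP4 and SFRP5. The markers of other cell types read as follows beside these results: the 11 fibroblast markers summed to 5227 to 8196 in the clones and 4213 in mock, the 9 blood and endothelial ones to 5018 to 7126 and 8876, and the 9 neural and muscle ones to 25162 to 61536 and 33382. The brightest kept members were COL1A1 (2227 to 3640.2 in the clones and 2066 in mock), CD14 (1464 to 2225 and 1558) and NEFL (11518 to 32243 and 18551). Over kept lung epithelial markers 20 of 55 pairs were at least 2-fold from mock (36.4%), against 9.66% over all kept genes. From SFRP1 to SFRP5, 5, 3, 2, 4 and 2 of these pairs were lower, and 1, 0, 1, 0 and 2 were higher. Over kept fibroblast markers the count was 7 of 20 (35%), and all 7 were higher. For blood and endothelial markers it was 5 of 25 (20%) and for neural and muscle markers 2 of 15 (13.3%). In 2 marker genes all 5 clones were lower than mock by at least 2-fold. The lung epithelial AGR2 read 40.6 to 1137 in the clones and 9089 in mock, and the endothelial PECAM1 read 527.2 to 718.1 in the clones and 4134 in mock (limma adjusted p 0.0718). The part of these markers in the HOX differences was not tested.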

How the data were processed

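RNA from 6 populations (1 array each) was extracted with Trizol, amplified, given Cy5 dye and read in a single colour, per the labels' protocols. The deposited table gives linear intensity for 31741 probes. Which scanner software, background step and scaling produced it is not stated in the labels. Precision is limited by the number of arrays. Sample titles gave the groups.

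The deposited intensity values were used with no further scaling: values below 0 were set to 0, 1 was added and log2 was taken. Gene names came from the platform's annotation. Only the 24740 probes with 1 symbol entered, not the 977 with several or the 6024 without a symbol. The probe brightest on average stood for its gene, and genes whose brightest array reached the table's median were kept. Differences of single clones were counted at 2-fold (1 log2 unit) with no test. The set of clones was compared with mock in limma (version 3.58.1, under R 4.3.3) by its moderated two-sided test on 4 residual degrees of freedom, adjusted by Benjamini-Hochberg across every kept gene with a threshold of 0.05, after the fit had been tested on simulated data. Promoter windows and gene order came from RefSeq tables (GRCh38.p14), matched by symbol.

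The HOX members, gene lists, thresholds and rules were chosen with earlier results of these data known. The rule names each kept HOX gene at least 2-fold from mock in a clone, up to 8 of those within 2-fold on all arrays, the brightest of each cluster, and for other lists the brightest kept member and those 2-fold away in one direction in at least 4 clones; genes outside it are marked in the text as chosen after their values were seen. Alternatives were quantile normalization, median centring, no filter and a stricter one (mean at or above the table's median), a pseudocount of 16, values raised to the array's 10th percentile, averaged probes, a mean-variance trend and leaving out each clone.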

Additional observations from a re-analysis of the deposited data

Results flagged for a closer look

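In each kept HOX gene the 5 clones, taken as one set, were checked for a single array far from the other 4 by Dixon's ratio of the gap to the whole range, with a critical value of 0.71. Of 25 genes, 2 passed it. The HOXB2 value of the SFRP1 clone had a ratio of 0.717, with a difference from mock of 1.39, against 0.44 to 0.71 in the other clones. The HOXB5 value of the SFRP4 clone had a ratio of 0.802, with a difference of 1.24, against 0.36 to 0.53. Chance marks about 1 in 20 groups, so a count of 2 in 25 genes is close to what it gives. The 5 clones carry different SFRP genes and are not replicates.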

How the results depend on the processing

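No paired analysis was possible because each population has 1 array and all carry the same replicate number. The count of HOX genes called for the set of clones was 0 under all 13 other settings, as in the reported fit, while over all genes 5 were called, with 6 under median centring or without SFRP4, 2 under the stricter filter, 2 without SFRP5 and 3 without SFRP2 or SFRP3. The count of HOX genes at least 2-fold from mock in SFRP1 was 3 to 6 and in SFRP4 2 to 4. In SFRP3 the 1 gene, HOXD1, was lost under quantile normalization, median centring and the stricter filter (0 each). In SFRP5 the count of 0 became 1 under quantile normalization and under median centring, with HOXA13 at -1.22 and -1.12, and 1 with no filter, with HOXB4 at 1.62. In SFRP2 it became 2 with no filter (HOXA11 and HOXB4). The number of HOX genes within 2-fold on all arrays was 9 to 11 under the other settings that keep all 6 arrays, apart from 18 of 38 with no filter, and 11 to 17 without 1 clone. The 17 came without SFRP4 (65.3% of all kept genes), and fewer arrays can only raise it. Of 212 mean differences of 18 named genes, 211 moved by less than the SD over clones, and HOXA10 moved by more under median centring. Much of that count was fixed beforehand. Both filter settings and the floor left these means unchanged. Leaving out 1 of 5 clones cannot move a mean by as much as their SD. The count is therefore no check on those settings. The sign turned in 20 of the 212 differences, in 9 genes. Those were HOXA7, HOXA10, HOXA13, HOXB7, HOXC5, HOXC8, HOXC13, HOXD1 and HOXD11. The means of HOXA3, HOXB2, HOXB3, HOXB5, HOXB8, HOXB13, HOXC6, HOXC10 and HOXD13 kept their sign. HOXB3 and HOXB13 were not kept with averaged probes and have no value there. Dim signal limits the 13 genes not kept.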
